A study of Homo sapiens with 9 samples.

Results

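The genes that copy DNA in S phase were followed in RD cells, an established human line from an embryonal rhabdomyosarcoma, a childhood tumour whose cells start but do not complete skeletal muscle differentiation. The 45 genes are a list of names that covers origin licensing, the replicative helicase, the polymerases, nucleotide supply, chromatin copying and the E2F system. The list uses no measured value as a rule. It was drawn up with earlier results of these data known, however, so the list as a set was not tested. They are 45 of the 60676 gene identifiers in the deposited count table, and all 45 passed the expression filter, among 17014 genes tested. Each symbol matched a single Ensembl identifier.

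Poly(A) RNA was sequenced from 9 libraries in 3 groups, with 3 libraries each. The first group carried shTRPS1#2, a hairpin against TRPS1, the second carried shTRPS1#1, another hairpin against TRPS1, and the third carried shNT, a non-targeting hairpin. TRPS1 encodes a DNA-binding repressor with a GATA zinc finger. Every group, shNT included, was kept in doxycycline (1 µM) through 2 days of growth medium with 10% fetal bovine serum and the following 10 days of differentiation medium with 2% horse serum. The labels give neither clone number nor culture of origin. The p-values below thus reflect only how libraries vary within groups, and that variation may be technical. The fit pools this spread over the 3 groups and draws it towards that of other genes.

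DNA replication runs in a fixed order. The origin recognition complex with CDC6 and CDT1 loads the ring of MCM2 to MCM7 onto DNA before S phase, CDC45 and GINS turn the ring into the working helicase, and primase, the polymerases, the clamp PCNA and its loader then copy both strands. E2F transcription factors, which the RB family holds back in resting cells, drive most of these genes together at the entry to S phase. Skeletal muscle cells leave the cell cycle as they differentiate, and this transcription is then normally low, whereas rhabdomyosarcoma cells keep dividing.

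Library totals ran from 21965744 to 23289062 counts. TRPS1 itself had 56.4, 59.0 and 56.8 CPM in the shTRPS1#2 libraries, 55.4, 61.7 and 56.3 CPM in the shTRPS1#1 libraries and 76.5, 70.0 and 74.1 CPM in the shNT libraries, where CPM is the count scaled to library size with TMM factors. The hairpins did not overlap shNT and overlapped each other, and TRPS1 mRNA averaged 57.4 ± 1.39 CPM with shTRPS1#2, 57.8 ± 3.42 CPM with shTRPS1#1 and 73.5 ± 3.29 CPM with shNT (SD, n = 3 each). Of 10 markers of the skeletal muscle lineage, 8 were high enough to be tested, MYF5 had at most 0.0448 CPM and MYF6 at most 0.400 CPM in a library. The summed level of these 10 markers was 6891 to 7078 CPM with shTRPS1#2, 7084 to 7271 CPM with shTRPS1#1 and 5264 to 5483 CPM with shNT. Of 5 blood markers none was high enough to be tested, CD3E was at 0 in every library, and their sum was 0.0444 to 0.454, 0.314 to 0.495 and 0.262 to 0.398 CPM in the same order. Markers of endothelium summed to 5.61 to 6.75, 4.53 to 5.99 and 4.20 to 4.85 CPM, almost all of it TEK, and those of epithelium to 7.59 to 9.55, 5.65 to 7.32 and 7.24 to 7.91 CPM. All 6 markers of fibroblasts were high enough to be tested, and they summed to 2088 to 2138 CPM with shTRPS1#2, 2404 to 2441 CPM with shTRPS1#1 and 2207 to 2293 CPM with shNT. Mitochondrial transcripts took 2.38 to 2.48% of counts with shTRPS1#2, 2.541 to 2.599% with shTRPS1#1 and 2.69 to 2.74% with shNT. The part of these differences in the results below was not tested.

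Because the members are known for shared control by E2F, the promoters of some of them are shown before the values. Each line gives 220 bases, from 200 before the annotated start to 20 after it, from RefSeq on GRCh38.p14. Capitals mark an E2F word (TTTCCCGC, TTTCGCGC, TTTGCCGC or TTTGGCGC) or the box CCAAT, which binds the factor NF-Y, on either strand. GINS2 had the largest fall of the licensing and helicase genes, MCM6 the most E2F words, E2F1 encodes an E2F itself, POLA2 holds an E2F word and passed no test, and RRM2 had the largest fall of all and holds no E2F word.

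GINS2, chr16:85688935-85689154, minus strand: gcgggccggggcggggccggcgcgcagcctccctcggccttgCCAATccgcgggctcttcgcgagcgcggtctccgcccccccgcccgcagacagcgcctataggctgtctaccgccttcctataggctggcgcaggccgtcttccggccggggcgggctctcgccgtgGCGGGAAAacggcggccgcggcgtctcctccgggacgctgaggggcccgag
MCM6, chr2:135876424-135876643, minus strand: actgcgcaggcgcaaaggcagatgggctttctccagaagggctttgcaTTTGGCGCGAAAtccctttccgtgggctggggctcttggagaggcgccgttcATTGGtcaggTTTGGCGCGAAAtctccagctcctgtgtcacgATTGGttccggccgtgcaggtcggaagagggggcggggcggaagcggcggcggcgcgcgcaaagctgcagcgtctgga
E2F1, chr20:33686366-33686585, minus strand: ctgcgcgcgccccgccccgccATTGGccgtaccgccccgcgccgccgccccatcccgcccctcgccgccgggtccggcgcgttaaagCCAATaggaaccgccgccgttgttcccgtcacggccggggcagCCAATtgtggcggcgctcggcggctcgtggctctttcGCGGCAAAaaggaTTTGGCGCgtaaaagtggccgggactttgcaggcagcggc
POLA2, chr11:65261762-65261981, plus strand: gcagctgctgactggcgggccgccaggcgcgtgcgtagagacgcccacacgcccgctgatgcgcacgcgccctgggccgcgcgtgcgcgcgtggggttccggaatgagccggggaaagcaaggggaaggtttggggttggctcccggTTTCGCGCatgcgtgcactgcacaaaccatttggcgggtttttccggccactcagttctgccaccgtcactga
RRM2, chr2:10122539-10122758, plus strand: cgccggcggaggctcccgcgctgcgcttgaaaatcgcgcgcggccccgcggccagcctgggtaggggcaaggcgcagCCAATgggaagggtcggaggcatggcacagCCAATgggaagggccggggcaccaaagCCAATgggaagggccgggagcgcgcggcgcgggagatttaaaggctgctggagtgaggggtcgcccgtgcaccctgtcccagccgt

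A promoter sequence was matched for 39 of the 45 genes. The windows searched ran from 250 bases before the start to 50 after it. An E2F word stood in 22 of the 39 windows (56.4%), against 3.33% of all 27305 promoter windows of that length. CCAAT stood in 22 of the 39 (56.4%) against 35.7% of all windows, and the SP1 box GGGCGG in 27 of the 39 (69.2%) against 44.6%. Words of different kinds shared bases in 4 of the windows, those of CLSPN, LIG1 and PCNA for E2F and SP1, and that of MCM7 for E2F and CCAAT. In MCM2 and MCM6 the E2F words of opposite strands overlap each other, so that the 4 words of MCM6 form 2 sites. Of the 29 E2F words, 21 began between 60 bases before the start and 10 after it. A match is a description of letters and no evidence of binding in these cells.

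**Figure D1:**
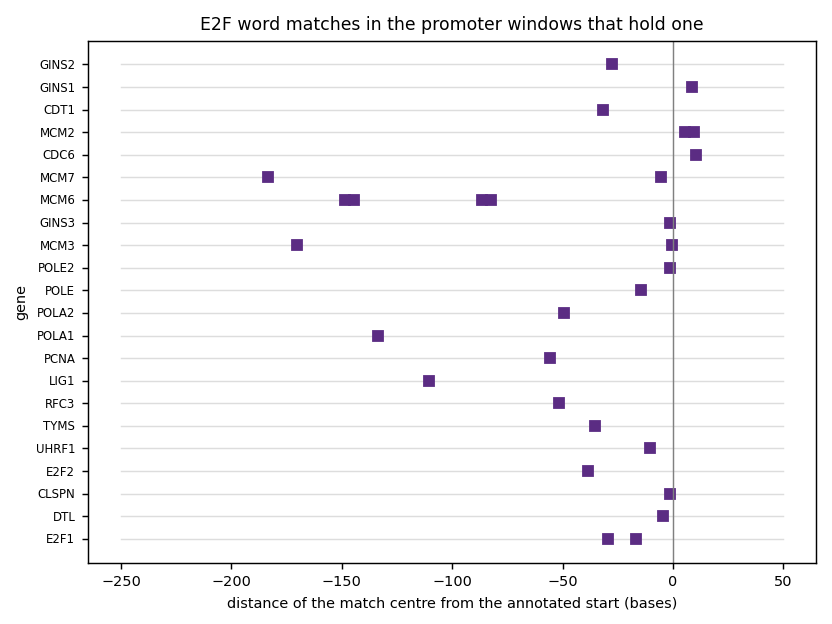
Position of E2F words in the promoter windows of the 22 genes that hold one. Each square is the centre of a word of 8 bases, on either strand, and the x axis is its distance in bases from the annotated start, with the window from 250 bases before to 50 after drawn as a line; most squares lie close to the start.

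With shTRPS1#2 the replication genes were lower almost throughout. Of the 45 genes, 39 fell and 0 rose, against 9.87% of all genes tested that fell and 9.01% that rose, or 18.9% in either direction (edgeR quasi-likelihood test, Benjamini-Hochberg adjusted p under 0.05 over 17014 genes). All 45 fold changes were negative. Their median log2 fold change was -0.32, with a range from -0.63 to -0.07, beside a median of -0.01 over all genes tested. Levels of the 45 genes thus stood between 64.4% and 95.3% of shNT. The 3 libraries of shTRPS1#2 lay below all 3 of shNT for 40 of the genes, against 16.9% of all genes tested, and above all of shNT for 0, against 14.9%. In bulk RNA, fewer cells in S phase and less of each mRNA per cell cannot be told apart.

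With shTRPS1#1 the share of the genes called was near that of all genes tested. Of the 45, 3 fell and 2 rose, against 6.33% and 7.1% of all genes tested, or 13.4% in either direction. At these shares, 3 falls and 2 rises of 45 are no result about these genes as a set. The median log2 fold change was 0.02, in a range from -0.19 to 0.23, beside 0.00 over all genes. The rises numbered 5 without shTRPS1#1 library 2 and 1 without shTRPS1#1 library 3 or shNT library 1, and the median was -0.01 without shNT library 1. The 3 libraries of shTRPS1#1 lay below all of shNT for 6 genes, against 13.6% of all genes tested, and above all of shNT for 4, against 13.8%. These counts are no result about the genes as a set either. The contrasts of the hairpins with shNT share the shNT libraries, so the hairpins were also compared with each other. Between them, 37 of the 45 genes were lower with shTRPS1#2 than with shTRPS1#1 and 0 were higher, against 10.7% and 8.9% of all genes tested, or 19.6% in either direction. The median difference was -0.31 on the log2 scale, beside 0.00 over all genes, and 44 of the 45 differences were negative. The libraries of the hairpins did not overlap for 38 genes, all of them lower with shTRPS1#2, against 17% of all genes tested that were lower and 15.5% that were higher without overlap.

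**Figure D2:**
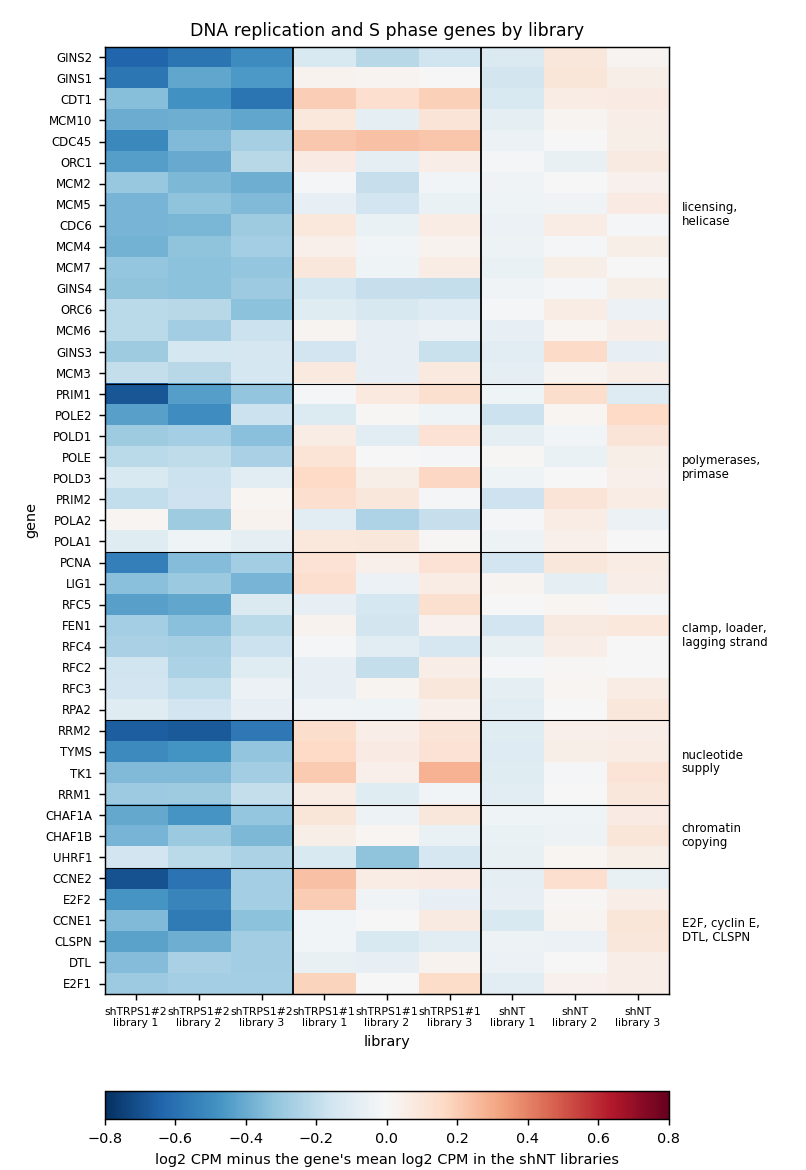
Each of the 45 genes (rows, grouped by role) in each of the 9 libraries (columns, shTRPS1#2 at the left, then shTRPS1#1, then shNT). Colour is log2 CPM minus the gene's mean log2 CPM in shNT, with blue for lower and red for higher; the shTRPS1#2 columns are blue in nearly all rows, and the other columns are pale.

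The pattern was shared by the 3 libraries of shTRPS1#2. The median over the 45 genes of log2 CPM minus the shNT mean was -0.34, -0.33 and -0.27 in the shTRPS1#2 libraries, 0.05, -0.04 and 0.04 in the shTRPS1#1 libraries and -0.06, 0.02 and 0.05 in the shNT libraries. Genes below the shNT mean numbered 44, 45 and 43 of 45 in the shTRPS1#2 libraries, 18, 29 and 18 in the shTRPS1#1 libraries and 42, 16 and 8 in the shNT libraries. Library 1 of shNT and library 2 of shTRPS1#1 were thus the lowest of their groups, and library 3 of shTRPS1#2 was the one nearest to shNT. The share of all counts that fell on the 45 genes was 0.247%, 0.246% and 0.256% with shTRPS1#2, 0.317%, 0.295% and 0.312% with shTRPS1#1, and 0.296%, 0.314% and 0.318% with shNT. Leaving out any single library gave 36 to 40 genes that fell with shTRPS1#2.

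The 16 genes of licensing and of the helicase all fell with shTRPS1#2, against 9.87% of all genes tested, and their median was -0.35 on the log2 scale. Levels between genes are compared in the deposited RPKM, which divides counts by gene length and library total. MCM7, a subunit of the MCM ring (chromosome 7, 100092728 to 100101940, minus strand, GRCh38, GENCODE release 29), had the highest RPKM of all 45 genes in shNT, 64.5 ± 2.49 (SD, n = 3). MCM7 had 228, 226 and 228 CPM in the shTRPS1#2 libraries, 302, 276 and 295 CPM in the shTRPS1#1 libraries and 272, 292 and 284 CPM in the shNT libraries. Its shTRPS1#2 libraries therefore lay below every other library, while those of shTRPS1#1 and shNT overlapped. Against shNT, MCM7 fell by 0.32 ± 0.03 on the log2 scale in the shTRPS1#2 libraries (SE, 3 libraries per group, edgeR adjusted p = 4.73e-10), while in the shTRPS1#1 libraries its change of 0.04 ± 0.03 did not pass (adjusted p = 0.532). The 6 ring subunits MCM2 to MCM7 moved within a narrow range, from -0.35 for MCM2 to -0.18 for MCM3 with shTRPS1#2, and all 6 fell. With shTRPS1#1 they ran from -0.09 for MCM5 to 0.04 for MCM7. None passed the test there, against 6.33% of all genes tested that fell and 7.1% that rose. At these shares, none of 6 is no result about these genes. All 6 were lower with shTRPS1#2 than with shTRPS1#1, against 10.7% of all genes tested.

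The loaders of the ring fell as well with shTRPS1#2. CDT1, which brings the MCM ring to origins and is destroyed in S phase, had 15.02, 13.6 and 12.7 CPM in the shTRPS1#2 libraries, 21.9, 20.9 and 21.7 CPM in the shTRPS1#1 libraries and 17.5, 19.8 and 19.9 CPM in the shNT libraries. The 3 groups of CDT1 values did not overlap, with shTRPS1#2 lowest and shTRPS1#1 highest. The log2 fold change of CDT1 was -0.47 ± 0.07 in the shTRPS1#2 libraries (edgeR adjusted p = 1.08e-06), and the 0.17 ± 0.07 of the shTRPS1#1 libraries did not pass (adjusted p = 0.0758). CDC6, an ATPase that works beside CDT1, fell with shTRPS1#2 (-0.34 ± 0.05), as did the origin recognition subunits ORC1 (-0.35 ± 0.06) and ORC6 (-0.26 ± 0.06). MCM10, which acts when the helicase starts to move, fell by 0.40 ± 0.06.

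CDC45, a helicase cofactor (chromosome 22, 19479459 to 19520612, plus strand), moved in opposite directions with the hairpins. It had 14.7, 16.4 and 17.5 CPM in the shTRPS1#2 libraries, 24.4, 24.7 and 24.5 CPM in the shTRPS1#1 libraries and 20.3, 21.0 and 21.6 CPM in the shNT libraries. None of the 3 groups overlapped, and shTRPS1#1 was the highest. CDC45 fell with shTRPS1#2 (-0.38 ± 0.07, edgeR adjusted p = 1.81e-05), rose with shTRPS1#1 (0.23 ± 0.06, adjusted p = 0.0074) and differed between the hairpins by -0.60 ± 0.06 (adjusted p = 2.62e-10).

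The GINS subunits, which join CDC45 on the ring, held both helicase genes that fell with shTRPS1#1 as well. GINS2 (chromosome 16, 85676198 to 85690073, minus strand), whose promoter is printed above with its E2F word, had 30.9, 31.9 and 33.8 CPM in the shTRPS1#2 libraries, 43.9, 41.0 and 42.8 CPM in the shTRPS1#1 libraries and 44.1, 50.9 and 48.6 CPM in the shNT libraries. The groups did not overlap, although the highest shTRPS1#1 library came close to the lowest shNT library. GINS2 fell by 0.57 ± 0.05 with shTRPS1#2 (edgeR adjusted p = 1.93e-12) and by 0.17 ± 0.05 with shTRPS1#1 (adjusted p = 0.015), and was lower with shTRPS1#2 than with shTRPS1#1 (-0.40 ± 0.05, adjusted p = 4.61e-08). The shTRPS1#1 call on GINS2 did not hold in DESeq2 (adjusted p = 0.0563), in limma on RPKM (0.0671), or without shNT library 2 (0.167), shNT library 3 (0.0666) or shTRPS1#1 library 2 (0.0848).

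GINS4 was at 51.1, 51.1 and 52.3 CPM in the shTRPS1#2 libraries, 58.2, 56.4 and 56.2 CPM in the shTRPS1#1 libraries and 62.9, 63.2 and 66.0 CPM in the shNT libraries, so that each group stood apart in steps. GINS4 fell with both hairpins, by 0.31 ± 0.04 on the log2 scale in the shTRPS1#2 libraries (edgeR adjusted p = 8.33e-08) and by 0.17 ± 0.04 in the shTRPS1#1 libraries (adjusted p = 0.00246). The difference between the hairpins, -0.14 ± 0.04 (adjusted p = 0.0126), was no longer called without shTRPS1#2 library 2 (adjusted p = 0.0665) or shTRPS1#1 library 1 (0.0866). GINS1 fell in the shTRPS1#2 libraries (-0.49 ± 0.06), and its change in the shTRPS1#1 libraries was 0.01 ± 0.06. GINS3 was the weakest call of the group, at -0.19 ± 0.07 with shTRPS1#2 (edgeR adjusted p = 0.0462), and the call was lost in 5 of the 6 other settings and without any of 5 libraries, with an adjusted p of up to 0.418 when shNT library 2 was left out.

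**Figure D3:**
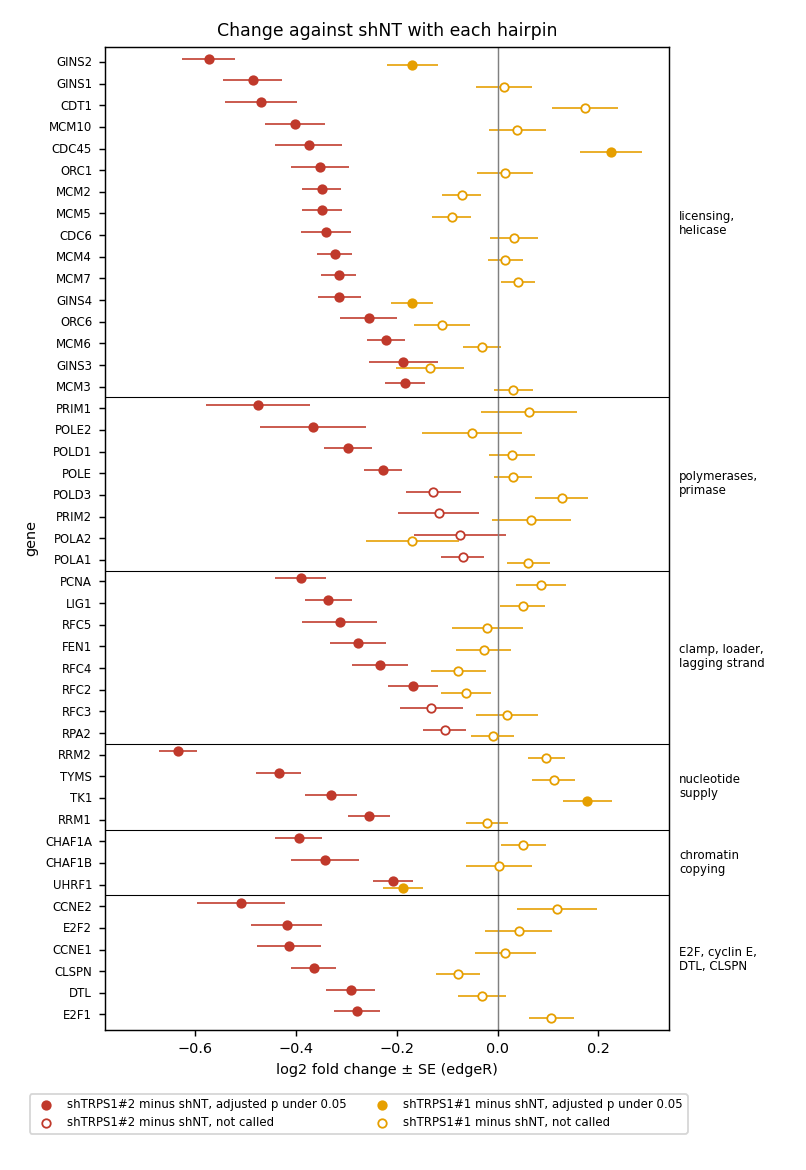
Log2 fold change against shNT of the 45 genes with shTRPS1#2 (red) and shTRPS1#1 (orange), with bars for ± SE of the edgeR fit and 3 libraries per group. Filled circles have an adjusted p under 0.05 over all genes tested; the red circles run from -0.63 to -0.07 and the orange circles lie on both sides of 0.

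The polymerases and primase moved least. Of 8 genes, 4 fell with shTRPS1#2, against 9.87% of all genes tested. Their median was -0.18, the smallest of the 6 role groups, though no test compared the role groups. The catalytic subunits of the leading and lagging strand polymerases, POLE (-0.23 ± 0.04) and POLD1 (-0.30 ± 0.05), fell with shTRPS1#2. POLE2, an accessory subunit of polymerase epsilon, fell too (-0.37 ± 0.10, edgeR adjusted p = 0.00828), but not without shTRPS1#2 library 2 (adjusted p = 0.0768) or shNT library 3 (0.0961). PRIM1, the catalytic subunit of primase, which lays the RNA primers, had 5.08, 6.02 and 6.57 CPM in the shTRPS1#2 libraries, 8.11, 8.65 and 8.92 CPM in the shTRPS1#1 libraries and 7.98, 9.02 and 7.61 CPM in the shNT libraries. Its shTRPS1#2 libraries were all lower than the rest (-0.48 ± 0.10, edgeR adjusted p = 0.000419), and PRIM1 also held the lowest count of any of the 45 genes in a library, 112.

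The partners of PRIM1 in the priming complex did not pass the test with shTRPS1#2. PRIM2, the large subunit of primase, had 11.5, 11.7 and 13.3 CPM in the shTRPS1#2 libraries, 14.4, 14.01 and 13.04 CPM in the shTRPS1#1 libraries and 11.7, 14.1 and 13.7 CPM in the shNT libraries. Those of shTRPS1#2 and shNT overlapped, and the fold change was -0.12 with a 95% interval from -0.28 to 0.05 (edgeR adjusted p = 0.361). POLA1, the catalytic subunit of polymerase alpha, had 56.2, 58.8 and 56.9 CPM in the shTRPS1#2 libraries, 63.7, 64.0 and 60.6 CPM in the shTRPS1#1 libraries and 58.6, 61.9 and 60.03 CPM in the shNT libraries. The shTRPS1#2 and shNT libraries overlapped. POLA1 was at -0.07 with an interval from -0.16 to 0.02 (adjusted p = 0.294), so a fall of the size of the median gene, -0.32, lay outside it. POLA1 was nonetheless lower with shTRPS1#2 than with shTRPS1#1 (-0.13 ± 0.04, adjusted p = 0.0233), a call lost in DESeq2 (0.0619), in limma on RPKM (0.0767) and without the count filter (0.0548), and without shTRPS1#2 library 1 (0.0999) or 3 (0.0673) or shTRPS1#1 library 1 (0.115) or 2 (0.0715).

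POLA2, the regulatory subunit of polymerase alpha and the gene with the lowest RPKM of the 45 in shNT (1.67 ± 0.07, SD, n = 3), was alone in having a higher fitted level with shTRPS1#2 than with shTRPS1#1. It had 9.39, 7.64 and 9.46 CPM in the shTRPS1#2 libraries, 8.79, 7.84 and 8.19 CPM in the shTRPS1#1 libraries and 9.21, 9.68 and 9.01 CPM in the shNT libraries. The libraries of the hairpins overlapped, the difference of 0.09 ± 0.09 did not pass (edgeR adjusted p = 0.553), and neither did the change with shTRPS1#2 (-0.07, interval -0.26 to 0.11) or shTRPS1#1 (-0.17, interval -0.35 to 0.02). Its counts are uncertain, since 35.1% of its exon bases also belong to AP000944.2 on the same strand, which held a mean of 155 counts against 198 for POLA2. POLD3, an accessory subunit of polymerase delta, had 28.99, 27.98 and 29.8 CPM in the shTRPS1#2 libraries, 35.3, 32.7 and 35.5 CPM in the shTRPS1#1 libraries and 30.8, 31.5 and 32.4 CPM in the shNT libraries. The POLD3 groups did not overlap, yet neither change against shNT passed the test (-0.13 ± 0.05 in the shTRPS1#2 libraries, edgeR adjusted p = 0.0956, and 0.13 ± 0.05 in the shTRPS1#1 libraries, adjusted p = 0.108, or 0.0423 without shTRPS1#1 library 2), whereas the hairpins differed (-0.25 ± 0.05, adjusted p = 0.000258).

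The clamp, its loader and the enzymes of the lagging strand fell in 6 of 8 cases with shTRPS1#2, with a median of -0.26, against 9.87% of all genes tested. With shTRPS1#1 0 of 8 fell, against 6.33% of all genes tested, a share at which none of 8 is no result about these genes. PCNA, the sliding clamp that tethers polymerases to DNA, had 56.0, 64.3 and 67.4 CPM in the shTRPS1#2 libraries, 88.5, 84.1 and 88.7 CPM in the shTRPS1#1 libraries and 73.5, 87.3 and 85.4 CPM in the shNT libraries. All PCNA values of shTRPS1#2 lay below the others, and the fold change was -0.39 ± 0.05 (edgeR adjusted p = 3.61e-08). DNA ligase LIG1 (-0.34 ± 0.05) and the flap nuclease FEN1 (-0.28 ± 0.06), which finish Okazaki fragments, fell together with shTRPS1#2. Of the clamp loader, RFC5 (-0.31 ± 0.07), RFC4 (-0.23 ± 0.06) and RFC2 (-0.17 ± 0.05) fell, the RFC2 call being lost in limma on RPKM (adjusted p = 0.0792) and without shTRPS1#2 library 2 (0.14).

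RFC3, a further subunit of the loader, had 20.5, 19.8 and 22.03 CPM in the shTRPS1#2 libraries, 21.7, 23.1 and 24.3 CPM in the shTRPS1#1 libraries and 21.6, 22.9 and 23.7 CPM in the shNT libraries. The groups overlapped and the fold change with shTRPS1#2 was -0.13 with an interval from -0.26 to -0.01 (edgeR adjusted p = 0.151). RPA2, part of the complex that coats single-stranded DNA, had 68.5, 66.0 and 70.1 CPM in the shTRPS1#2 libraries, 71.9, 71.5 and 75.2 CPM in the shTRPS1#1 libraries and 69.1, 73.1 and 77.9 CPM in the shNT libraries. The shTRPS1#2 libraries overlapped shNT and lay below those of shTRPS1#1. RPA2 was at -0.11 with an interval from -0.19 to -0.02 (adjusted p = 0.0823), and was called without shNT library 1 (adjusted p = 0.0158).

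The 4 genes of nucleotide supply fell with shTRPS1#2, against 9.87% of all genes tested, and included the largest change of the 45. RRM2, the regulated subunit of ribonucleotide reductase (chromosome 2, 10120698 to 10131419, plus strand), had 119, 118 and 126 CPM in the shTRPS1#2 libraries, 206, 194 and 201 CPM in the shTRPS1#1 libraries and 175, 193 and 194 CPM in the shNT libraries. The shTRPS1#2 libraries stood well below the rest. RRM2 was at 64.4% of shNT with shTRPS1#2 (log2 fold change -0.63 ± 0.04, edgeR adjusted p = 1.22e-18), and its log2 fold change with shTRPS1#1 was 0.10 ± 0.04 (adjusted p = 0.0793), a rise that was called without shTRPS1#1 library 2 (0.0422). The hairpins differed by -0.73 ± 0.04 (adjusted p = 8.87e-21). Its partner RRM1, the large catalytic subunit, fell with shTRPS1#2 as well (-0.26 ± 0.04).

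TK1, thymidine kinase of the salvage route, was the other gene called in opposite directions. It had 49.1, 49.1 and 51.9 CPM in the shTRPS1#2 libraries, 72.7, 64.6 and 76.3 CPM in the shTRPS1#1 libraries and 58.8, 62.3 and 67.8 CPM in the shNT libraries. The shTRPS1#2 libraries lay below the rest, and those of shTRPS1#1 and shNT overlapped. TK1 fell with shTRPS1#2 (-0.33 ± 0.05, edgeR adjusted p = 1.34e-06) and rose with shTRPS1#1 (0.18 ± 0.05, adjusted p = 0.00749), a rise that limma on RPKM did not call (0.143) and that was lost without shTRPS1#1 library 3 (0.151) or shNT library 1 (0.0895). Thymidylate synthase, TYMS, which makes thymidylate from its uracil precursor, had 77.7, 79.5 and 88.9 CPM in the shTRPS1#2 libraries, 123, 115.9 and 120.0 CPM in the shTRPS1#1 libraries and 103, 114 and 115.5 CPM in the shNT libraries. The groups did not overlap, though the lowest shTRPS1#1 library was close to the highest shNT library. TYMS fell by 0.43 ± 0.04 on the log2 scale in the shTRPS1#2 libraries, and its change in the shTRPS1#1 libraries was 0.11 ± 0.04 (edgeR adjusted p = 0.0768), a rise that was called without shTRPS1#2 library 3 (0.038) or shNT library 3 (0.0487). ENOSF1 covers 39.1% of the exon bases of TYMS on the opposite strand and was at -0.07 ± 0.05 with shTRPS1#2 (adjusted p = 0.382); since the strand setting of the counting is not given, reads of this pair may have been mixed.

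**Figure D4:**
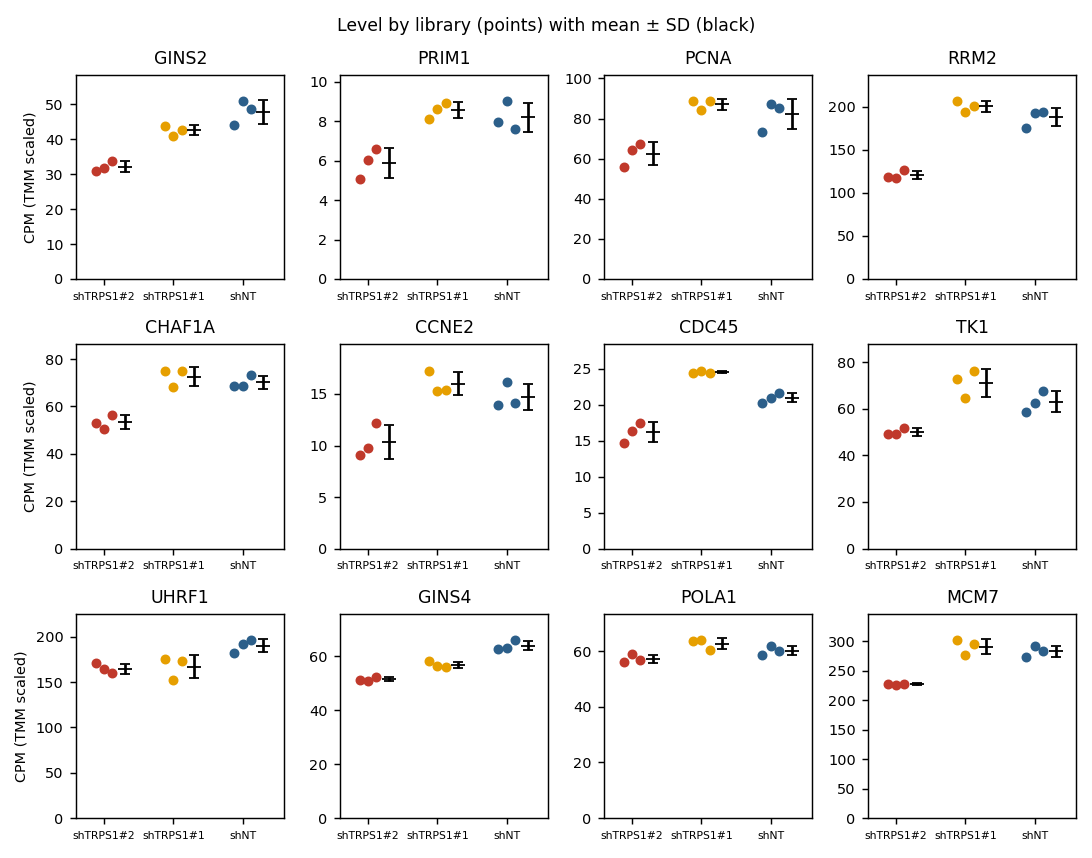
CPM in each of the 9 libraries for 12 of the genes, with shTRPS1#2 in red at the left, shTRPS1#1 in orange and shNT in blue at the right. Points are libraries and black bars are mean ± SD (n = 3); the means of CDC45 and TK1 lie above shNT with shTRPS1#1 and below it with shTRPS1#2, the TK1 libraries of shTRPS1#1 and shNT overlap, and UHRF1 and GINS4 are below shNT with both hairpins.

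Genes that copy chromatin behind the fork fell in all 3 cases with shTRPS1#2, against 9.87% of all genes tested. CHAF1A, the large subunit of the chromatin assembly factor that places histones on new DNA, had 52.9, 50.5 and 56.5 CPM in the shTRPS1#2 libraries, 75.1, 68.0 and 74.8 CPM in the shTRPS1#1 libraries and 68.5, 68.5 and 73.4 CPM in the shNT libraries. Its shTRPS1#2 libraries were below all others (-0.40 ± 0.05, edgeR adjusted p = 2.17e-09), and CHAF1B, its partner, fell by 0.34 ± 0.07. UHRF1, which brings the maintenance DNA methyltransferase to new DNA (chromosome 19, 4903080 to 4962154, plus strand), behaved otherwise. It had 171, 164 and 159.6 CPM in the shTRPS1#2 libraries, 175, 152 and 173 CPM in the shTRPS1#1 libraries and 182, 192 and 196 CPM in the shNT libraries. Both hairpins lay below shNT without overlap, and they overlapped each other. UHRF1 fell with shTRPS1#2 (-0.21 ± 0.04, adjusted p = 6.81e-05) and with shTRPS1#1 (-0.19 ± 0.04, adjusted p = 0.000354), and the difference between the hairpins was -0.02 with an interval from -0.10 to 0.06 (adjusted p = 0.806). UHRF1, GINS2 and GINS4 were the 3 genes that fell with both hairpins, against 2.37% of all genes tested. Since 39 of the 45 genes fell with shTRPS1#2, this count follows the falls with shTRPS1#1, 3 of 45 against 6.33% of all genes tested. At that share the count is no result about these genes as a set. It was 2 where the GINS2 call with shTRPS1#1 was lost.

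All 6 genes of the E2F system, cyclin E, the licensing ligase and the fork checkpoint fell with shTRPS1#2, with a median of -0.39, against 9.87% of all genes tested. None passed with shTRPS1#1, against 6.33% of all genes tested that fell and 7.1% that rose. At these shares, none of 6 is no result about these genes. E2F1 was called higher with shTRPS1#1 when shTRPS1#1 library 2 was left out (0.16, edgeR adjusted p = 0.0127). CCNE2, a cyclin E that activates CDK2 at the entry to S phase, had 9.07, 9.75 and 12.2 CPM in the shTRPS1#2 libraries, 17.3, 15.3 and 15.4 CPM in the shTRPS1#1 libraries and 13.9, 16.1 and 14.1 CPM in the shNT libraries. The shTRPS1#2 libraries were the lowest (-0.51 ± 0.09, edgeR adjusted p = 9.32e-06), with library 3 the nearest to shNT. INTS8 overlaps 37.0% of the exon bases of CCNE2 on the opposite strand and was at 0.01 ± 0.05 (adjusted p = 0.91). It held a mean of 1339 counts against 308 for CCNE2. Since the strand setting is not given, reads of this pair may have been mixed, so the CCNE2 values are uncertain. The other cyclin E, CCNE1, fell by 0.41 ± 0.06, and the activating factors E2F1 and E2F2 fell by 0.28 ± 0.05 and 0.42 ± 0.07. DTL, which guides a ubiquitin ligase to CDT1 (-0.29 ± 0.05), and CLSPN, claspin, which passes the signal of stalled forks to the checkpoint kinase (-0.37 ± 0.04), fell as well. The 22 genes with an E2F word in the window searched had a median of -0.33 with shTRPS1#2, with 19 of them called. The 17 genes without such a word also had a median of -0.33, with 16 called. This split was not tested. Only 4 words in a single window per gene were searched, so a window without them does not show that E2F control is absent.

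Other genes of the pathway were taken from 6 lists with 92 genes, all tested, which like the 45 genes were drawn up with earlier results of these data known. Their counts stand beside 9.87% of all genes tested that fell and 9.01% that rose with shTRPS1#2, and 6.33% that fell and 7.1% that rose with shTRPS1#1. Of 18 further genes of licensing and firing, 11 fell and 0 rose with shTRPS1#2 (median -0.17), and 0 fell and 1 rose with shTRPS1#1 (median 0.02). TICRR, which helps CDC45 onto the ring, had the largest fall with shTRPS1#2 (-0.41), and the gene that rose with shTRPS1#1 was CDC7, the kinase that fires origins (0.34), which was at -0.08 with shTRPS1#2 (edgeR adjusted p = 0.249). Of the origin recognition subunits, ORC3 fell with shTRPS1#2 (-0.14, edgeR adjusted p = 0.0255). With shTRPS1#1 it was at -0.13 and just missed the threshold (adjusted p = 0.0512), and the hairpins differed by only -0.01 (adjusted p = 0.919). ORC2, ORC4 and ORC5 passed in neither contrast. Without shNT library 3, 7 of the 18 fell with shTRPS1#2.

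Of 18 further genes of DNA synthesis, 8 fell and 2 rose with shTRPS1#2 (median -0.11), and none was called with shTRPS1#1 (median -0.02). The largest fall was that of RPA3, a subunit beside RPA2 (-0.33), and those that rose, a share near that of all genes, were the ligase LIG3 (0.14) and the topoisomerase TOP1 (0.09). This list gave 5 falls in DESeq2, without the count filter, and without shTRPS1#2 library 1 or 2 or shNT library 2 or 3. Of 16 further genes of nucleotide supply, 7 fell and 1 rose with shTRPS1#2 (median -0.06), and 1 fell and 0 rose with shTRPS1#1 (median 0.06). The gene that rose was SAMHD1, which breaks down deoxynucleotides, at 0.17 with shTRPS1#2, and it was also the gene that fell with shTRPS1#1, at -0.36, so that the hairpins differed by 0.53 (edgeR adjusted p = 1.02e-12). SHMT1 had the largest fall of this list with shTRPS1#2 (-0.30). The 7 falls were 4 in DESeq2 and without shTRPS1#2 library 2 or shNT library 2 or 3, and 3 in limma on RPKM.

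Of 7 further genes of chromatin copying, 5 fell with shTRPS1#2 (median -0.21) and 2 with shTRPS1#1 (median -0.01), and 0 rose with either. The histone chaperones of the ASF1 pair differed: ASF1B was at -0.38 with shTRPS1#2 and -0.10 with shTRPS1#1, of which the first passed, and ASF1A was at -0.05 and -0.29, of which the second passed. Of 17 further genes of E2F and RB control, 10 fell and 1 rose with shTRPS1#2 (median -0.16), and 0 fell and 5 rose with shTRPS1#1 (median 0.08). E2F7, a repressor of the E2F family, had the largest fall with shTRPS1#2 (-0.57), and the gene that rose was SKP2, a ubiquitin ligase subunit (0.15). MYBL2, an activator of later cell cycle genes, was at -0.44 with shTRPS1#2 and 0.31 with shTRPS1#1, both called, and the hairpins differed by -0.76 (edgeR adjusted p = 1.39e-18). The RB family gene RBL1 fell with shTRPS1#2 (-0.18), and RB1 and RBL2 passed in neither contrast.

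**Figure D5:**
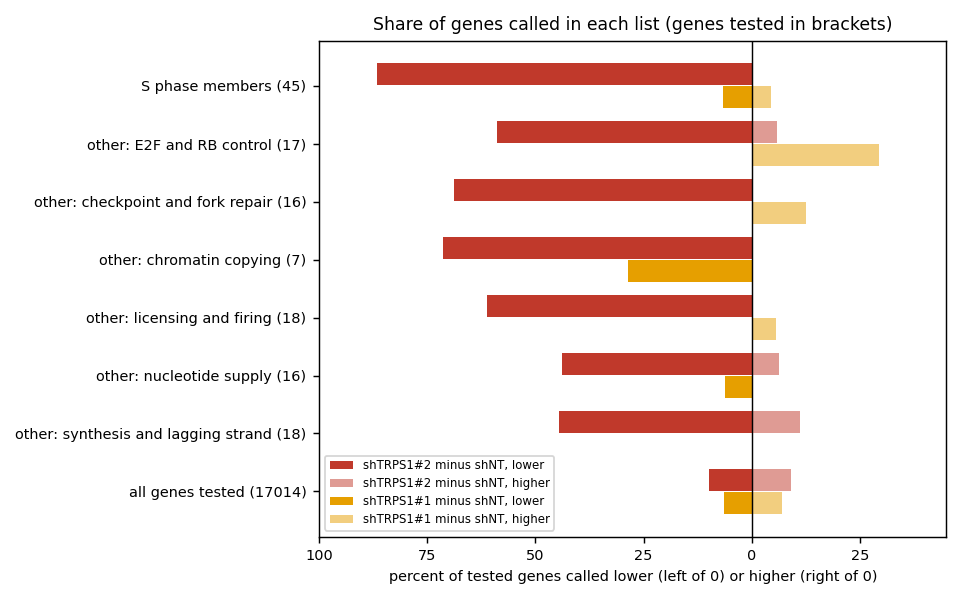
Percent of tested genes called lower (bars to the left of 0) or higher (bars to the right) against shNT, for the 45 genes, for the 6 lists of other pathway genes and for all 17014 genes, with the number tested in brackets. Red is shTRPS1#2 and orange is shTRPS1#1; the 45 genes have the longest red bar to the left, and no test compared the lists.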

How the data were processed

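Per the labels' protocols, 180 ng of total RNA went into each poly(A) library (NEBNext Ultra II). The authors deposited whole-number counts per gene, not normalized, and RPKM for the same genes. The RPKM equalled the deposited counts divided by a gene length and the library total (largest relative deviation 1.02e-14). Tools and build, per the submitters' processing notes, were STAR 2.7.2b, featureCounts 1.6.5, bcl2fastq 2.20.0.422 and GRCh38. Not given in the sources used here were the strand setting, annotation release and treatment of multiple alignments. Of the identifiers, 319 without a symbol held 0.107% of counts.

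The test was edgeR's quasi-likelihood test (edgeR 4.0.16, R 4.3.3) in 1 fit of all 9 libraries (TMM, filterByExpr with a minimum count of 10, 6 residual degrees of freedom), with Benjamini-Hochberg adjustment over 17014 genes. The SE was derived from the fold change and its F statistic, and the 95% intervals use it with the test's degrees of freedom, so both are approximate. The scripts were tested on simulated data. Alternatives were RLE factors, DESeq2 1.42.0, limma 3.58.1 on log2(RPKM + 0.1), no filter, a replicate block, only the libraries compared, and leaving out each library. Replicate numbers were not used as pairs in the main fit.

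The 45 members and the other lists were chosen with earlier results of these data known. Values by library are given for the largest change in each role group, each gene called with shTRPS1#1, each gene not called with shTRPS1#2, the highest and lowest RPKM, and, chosen after their values were seen, CDT1 and TYMS. From each other list the largest called change each way is named, except 1 that is not reported here, with further genes of the lists (CDC7, TOP1, ORC2, ORC3, ORC4, ORC5, ATR, RBL1, RB1 and RBL2) chosen after their values were seen. Depth limits the precision of the genes with few counts, such as PRIM1, whose SE was 0.10.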

Additional observations from a re-analysis of the deposited data

Results flagged for a closer look

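CDC45 and TK1 were the members whose effects differed between the hairpins with a call in opposite directions against shNT. CDC45 was lower with shTRPS1#2 and higher with shTRPS1#1, and the hairpins differed by -0.60 on the log2 scale (edgeR adjusted p = 2.62e-10; shTRPS1#2 lower in 3 of 3 libraries). TK1 did the same, with a difference of -0.51 (edgeR adjusted p = 2.3e-11; lower in 3 of 3 libraries). Neither difference was lost in any other setting or without any single library, while the rise of TK1 with shTRPS1#1 was lost in 3 of them. Groups of 3 libraries are too small for a check of outlying libraries.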

How the results depend on the processing

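The count of members that fell with shTRPS1#2 was 37 to 39 in the 6 other settings and 36 to 40 when a library was left out, and that of members lower with shTRPS1#2 than with shTRPS1#1 was 33 to 37 and 34 to 38. With shTRPS1#1, 3 members fell and 2 rose; the falls were 2 to 3 in every setting, and the rises were 1 in limma on RPKM, 4 with the replicate block, which added RRM2 and TYMS, and 1 to 5 without a library. The 5 came without shTRPS1#1 library 2, and the 1 without shTRPS1#1 library 3 or shNT library 1; in limma and in these cases the call lost was TK1. Members that fell with both hairpins numbered 2 to 3. Same-numbered libraries of different groups deviated together little or not at all (correlations of -0.02 to 0.05 over 9 pairs, against -0.06 to 0.04 for other numbers). These correlations take in all genes tested, also those with few counts, and so cannot exclude a pairing. The block gave 39 falls with shTRPS1#2. The medians of the members ran from -0.34 to -0.29 with shTRPS1#2, from -0.01 to 0.04 with shTRPS1#1, where the sign turned, and from -0.34 to -0.27 between the hairpins as single libraries were left out. Of the other lists, falls with shTRPS1#2 numbered 7 to 11 for licensing, 5 to 10 for synthesis, 4 to 7 for nucleotide supply, 8 to 12 for checkpoint and repair and 8 to 10 for E2F and RB when a library was left out. In DESeq2 nucleotide supply had 4 and synthesis 5 falls, without the filter synthesis had 5, and in limma nucleotide supply had 3. With only TTTCCCGC and TTTGGCGC, 20 promoter windows held an E2F word. No called member changed sign. Over all genes the falls and rises moved by less than 1.5 times, and the median of all genes by less than 0.1.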

Other observations

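Genes of the replication checkpoint and of fork repair, listed with the pathway genes, were lower with shTRPS1#2 in most cases. Of 16 genes, 11 fell and 0 rose with shTRPS1#2 (median -0.19), against 9.87% of all genes tested that fell and 9.01% that rose. With shTRPS1#1, 0 fell and 2 rose (median 0.00), against 6.33% of all genes tested that fell and 7.1% that rose. At these shares, 0 falls and 2 rises of 16 are no result about these genes as a set. The genes that rose with shTRPS1#1 were FANCD2, of the Fanconi anaemia pathway (0.21, edgeR adjusted p = 0.0015), and the nuclease EXO1 (0.19, adjusted p = 0.032). Both of them fell with shTRPS1#2 (-0.17 and -0.34), and the hairpins differed by -0.38 for FANCD2 and -0.53 for EXO1 (adjusted p = 3.53e-08 and 1.12e-08). The checkpoint kinase ATR was at 0.04 with shTRPS1#2 and -0.01 with shTRPS1#1.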
